A study of Mus musculus with 8 samples.

Results

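The genes described here encode the machinery that loads and displays peptides on major histocompatibility complex (MHC) class II molecules, measured in bone marrow cultures of mice that lack Bob1 or miR-146a. The members were the 10 genes Cd74, H2-Aa, H2-Ab1, H2-Eb1, H2-DMa, H2-DMb1, H2-DMb2, H2-Oa, H2-Ob and Ciita, and every array probe that carries one of these names was used. They are 10 of the 27376 names given to probes on the array and were covered by 17 of its 41174 probes, and all 17 were among the 26523 probes bright enough to be tested. All mice were 10 weeks old and of the C57BL/6 strain. Femur marrow was cultured for 5 days with the cytokine IL-7, under which B cell precursors grow out, in Iscove's medium with FCS. RNA of 8 cultures was hybridised to 8 one-colour Agilent arrays. The 4 groups of 2 cultures each were Bob1+/+ and Bob1-/- mice, and C57BL/6Ncrl wild-type and mir-146a-/- mice. In every group replicate A was female and replicate B male. How many mice went into a culture and how the alleles were made is not stated in the labels. The spread behind each p-value is that between the female and the male culture within the groups. With 2 arrays in a group the precision of every value is limited.

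MHC class II molecules are pairs of an alpha and a beta chain that present peptides from endosomes to CD4+ T cells. The invariant chain, Cd74, escorts the new pair and blocks its groove, H2-DM removes the last fragment of the invariant chain and helps peptides bind, and H2-O restrains H2-DM. Ciita is the coactivator on which transcription of these genes depends: it binds no DNA itself but joins factors seated on the conserved X and Y boxes of their promoters. Bob1, encoded by Pou2af1, is a B cell coactivator that joins the octamer-binding factors Oct1 and Oct2, and miR-146a is a microRNA that dampens inflammatory signalling. Class II is acquired as B cells mature and is also carried by dendritic cells and macrophages.

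A level below is the log2 signal of a probe minus the 75th percentile of log2 signal on that array, so that 0 is the 75th percentile. That percentile ran from 494 to 782 intensity units over the 8 arrays, with the Bob1-/- arrays lowest at 494 and 622. Pou2af1 lay at 6.40 and 6.56 in Bob1+/+ and at 2.71 and 2.82 in Bob1-/-. The cultures were mixed. All 15 tested B lineage markers, all 19 monocyte and macrophage markers and all 9 neutrophil markers were well above background on both arrays of each group. Both Bob1+/+ arrays lay on slide 1 and both Bob1-/- arrays on slide 2, while each of the other groups had an array on each slide. In these bulk cultures, fewer cells of a type and less RNA per cell cannot be told apart.

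All 10 genes were lower in Bob1-/- than in Bob1+/+ cultures. All 17 probes passed the test (limma, Benjamini-Hochberg adjusted p under 0.05 over all tested probes), against 5.55% of all tested probes called in either direction and 2.73% called lower in the same comparison. The median log2 fold change of the 17 probes was -1.77, against 0.11 over all tested probes, and 1.38% of tested probes fell as far as that median or farther. Of the 17 probes, 11 changed by between -1.65 and -1.87 on the log2 scale. A further one, of H2-Ob, was not well above background on either Bob1-/- array, so its size is not measured. The 4 beyond -2 were those of Cd74, Ciita and H2-DMb2 and a probe that matches both H2-DMb1 and H2-DMb2, and the 1 with the smallest change was a probe of H2-Ob. For every probe both Bob1-/- arrays lay below all 6 other arrays, as they did for 14.3% of tested probes. The gap between the higher Bob1-/- array and the lowest of the 6 ran from 0.92 to 2.92, against a range among the 6 arrays of at most 0.87. Left out one at a time, the array with the strongest effect on the count was Bob1+/+ replicate A, without which 11 of the 17 probes passed. In the authors' deposited table of log2 values, whose background treatment is unknown, the same fit called 15 of the 17, with a median of -1.22. There Cd74 changed by -2.56, while several other changes were smaller by over 1.5 times: Ciita changed by -1.24, the shared H2-DMb1 and H2-DMb2 probe by -0.88, H2-DMa by -1.07, H2-Ob at A_52_P679470 by -0.51 and H2-DMb2 by -0.31. H2-Ab1 at A_52_P570717 gave -1.08 and H2-Oa -1.08 and -0.91. The probes not called there were the second H2-Oa probe, A_51_P449329 (adjusted p = 0.0509), and the dim H2-Ob probe (0.388).

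**Figure D1:**
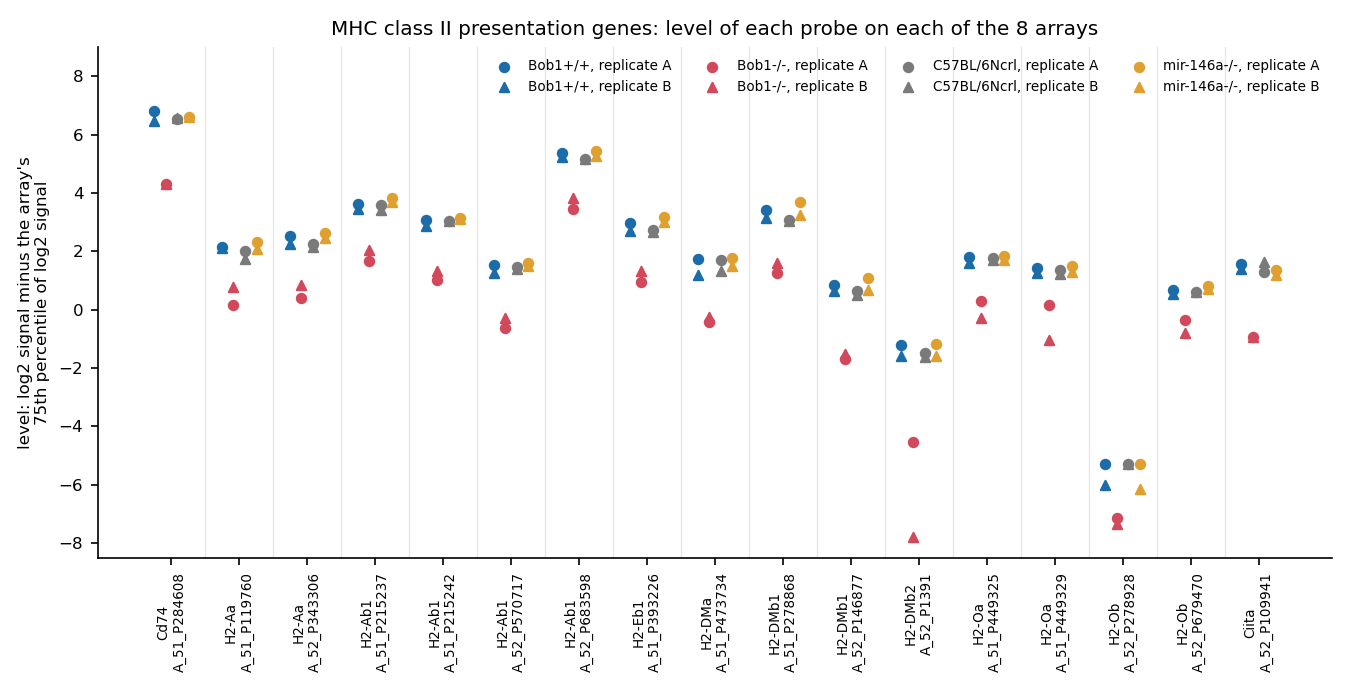
Level of each of the 17 probes (x axis) on each of the 8 arrays, as log2 signal minus the array's 75th percentile (y axis). Colours mark the genotype, circles replicate A and triangles replicate B; the 2 Bob1-/- points of each probe lie below the other 6.

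The slide and the Bob1 genotype coincide for these 4 arrays, so 2 further comparisons used the other arrays. With the slide as a block, which the other 4 arrays make estimable, the median change was -1.80 and all 17 probes were lower, but 3 passed the threshold: Ciita (-2.65, adjusted p = 0.0153), Cd74 (-2.33, adjusted p = 0.0330) and the probe that H2-DMb1 shares with H2-DMb2 (-2.50, adjusted p = 0.0360). In that fit 0.369% of tested probes were called lower. With only the 4 Bob1 arrays in the fit, 9 of the 17 passed, against 0.909%. Against the 2 other arrays of slide 2, a C57BL/6Ncrl and a mir-146a-/- culture, all 17 probes were again lower in Bob1-/-, with a median of -1.90. Of them 7 passed the threshold, against 0.747% of tested probes called lower, and all 17 had an unadjusted p under 0.05, against 8.67%.

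The invariant chain gene Cd74 (probe A_51_P284608, mm9 chr18:60972075-60972132) had levels of 6.80 and 6.46 in Bob1+/+ and of 4.32 and 4.32 in Bob1-/-. It lay at 6.52 and 6.56 in C57BL/6Ncrl and at 6.59 and 6.59 in mir-146a-/-. The 6 cultures with Bob1 differed by 0.34 at most, and the Bob1-/- pair lay 2.14 below the lowest of them. The fitted fall was 4.96-fold (-2.31 ± 0.14 on the log2 scale, estimate ± SE, adjusted p = 0.000856), and the call held with each array left out in turn.

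Ciita, the coactivator of the class II promoters, was measured by probe A_52_P109941 (mm9 chr16:10526303-10526362). Its levels were 1.55 and 1.38 in Bob1+/+, -0.93 and -0.92 in Bob1-/-, 1.30 and 1.63 in C57BL/6Ncrl, and 1.37 and 1.17 in mir-146a-/-. The Bob1-/- pair again lay close together and apart from the rest. Ciita fell 5.25-fold (log2 fold change -2.39, SE 0.16, 95% confidence interval -2.77 to -2.02, adjusted p = 0.00102), and this call also held with each array left out. The array has 1 Ciita probe, so transcripts from its alternative promoters were not told apart.

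The 8 H2 genes lie together in the class II region of chromosome 17. The classical alpha chain gene H2-Aa had 2 probes. At A_52_P343306 (mm9 chr17:34421285-34421344) the levels were 2.51 and 2.25 in Bob1+/+, 0.38 and 0.86 in Bob1-/-, 2.24 and 2.16 in C57BL/6Ncrl, and 2.62 and 2.46 in mir-146a-/-. Replicate A was the lower of the Bob1-/- pair, and both lay well under the other cultures. The fall was 3.39-fold (-1.76 ± 0.19 on the log2 scale, estimate ± SE, adjusted p = 0.00567). The other probe, A_51_P119760, gave -1.66 (SE 0.22, adjusted p = 0.0134), a call that was lost without Bob1+/+ replicate A (adjusted p = 0.0702) or B (0.0588).

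The beta chain gene H2-Ab1 had 4 probes, which fell by 3.15-fold to 3.65-fold. A_51_P215237 (mm9 chr17:34404388-34404447) is printed 10 times on the array, and its spots on an array differed with an SD of 0.024 to 0.097 on the log2 scale. Its levels were 3.64 and 3.44 in Bob1+/+, 1.68 and 2.05 in Bob1-/-, 3.60 and 3.42 in C57BL/6Ncrl, and 3.83 and 3.68 in mir-146a-/-. The spread between spots was far smaller than the distance between Bob1-/- and the rest. It reflects the reading within an array and not the spread between cultures. The fall at this probe was 3.18-fold (-1.67 ± 0.17 on the log2 scale, estimate ± SE, adjusted p = 0.00485), and all 4 probes kept their calls with each array left out.

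H2-Ab1 is among the most variable genes between mouse strains, and 2 of its probes read the same stretch of the gene in different versions. They are shown because their changes can be set side by side although their sequences differ. A_51_P215242 maps to mm9 chr17:34401723-34401782, and A_52_P570717 has no mapped position in the scanner files. Both are given 5′ to 3′ in lower case, with the bases that differ in capitals:
A_51_P215242: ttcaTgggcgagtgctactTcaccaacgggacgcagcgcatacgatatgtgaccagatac
A_52_P570717: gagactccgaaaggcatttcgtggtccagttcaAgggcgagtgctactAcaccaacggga
The probes overlap by 31 bases, of which 29 match. The substitutions are T5A and T20A, counted from 1 at the 5′ end of A_51_P215242, with the base of that probe first. A_51_P215242 changed by -1.79 (SE 0.15, adjusted p = 0.00234) and A_52_P570717 by -1.87 (SE 0.17, adjusted p = 0.00296) on the log2 scale. The difference between these changes was smaller than either SE.

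The second beta chain gene, H2-Eb1 (A_51_P393226), had levels of 2.98 and 2.70 in Bob1+/+, 0.93 and 1.33 in Bob1-/-, 2.74 and 2.67 in C57BL/6Ncrl, and 3.16 and 3.01 in mir-146a-/-. It fell 3.28-fold (-1.72 ± 0.18 on the log2 scale, estimate ± SE, adjusted p = 0.00516), with both Bob1-/- arrays below the rest. Its partner gene for the E alpha chain carries an inactivating deletion in C57BL/6 mice, and the probe for it, named H2-Ea-ps, was too dim to be tested, with levels between -8.18 and -7.54 on the 8 arrays. H2-Eb2, a related beta chain gene outside the 10, changed by -0.46 (SE 0.42, adjusted p = 0.494) and was not called.

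H2-DM is the peptide exchange factor, made of H2-DMa and an H2-DMb chain. H2-DMa (A_51_P473734) had levels of 1.73 and 1.20 in Bob1+/+, -0.42 and -0.27 in Bob1-/-, 1.70 and 1.32 in C57BL/6Ncrl, and 1.78 and 1.48 in mir-146a-/-. Replicate A was higher than B in each group with Bob1 and the Bob1-/- levels still did not overlap. The fall was 3.50-fold (-1.81 ± 0.23 on the log2 scale, estimate ± SE, adjusted p = 0.0107), and the call was lost without Bob1-/- replicate A (adjusted p = 0.0515).

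The mouse has 2 neighbouring genes for the H2-DM beta chain. H2-DMb1 had a probe of its own, A_51_P278868 (mm9 chr17:34297109-34297168), with levels of 3.40 and 3.14 in Bob1+/+, 1.27 and 1.61 in Bob1-/-, 3.06 and 3.04 in C57BL/6Ncrl, and 3.68 and 3.23 in mir-146a-/-. It fell 3.55-fold (-1.83 ± 0.20 on the log2 scale, estimate ± SE, adjusted p = 0.00624). The array file lists its other probe, A_52_P146877 (mm9 chr17:34294265-34294324), under transcripts of both genes, so its signal cannot be assigned to either. H2-DMb2 was read by A_52_P1391 (mm9 chr17:34284764-34284823). The sequences of the shared probe and of the H2-DMb2 probe show what each change refers to:
A_52_P146877: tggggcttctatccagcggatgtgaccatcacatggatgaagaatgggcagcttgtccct
A_52_P1391: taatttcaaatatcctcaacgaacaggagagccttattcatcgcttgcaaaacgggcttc
The shared probe had levels of 0.85 and 0.65 in Bob1+/+, -1.71 and -1.52 in Bob1-/-, 0.62 and 0.50 in C57BL/6Ncrl, and 1.08 and 0.69 in mir-146a-/-. Its change was -2.36 (SE 0.17, adjusted p = 0.00150), and its call held with each array left out. The 95% confidence interval of the shared probe, -2.78 to -1.95, overlapped that of the H2-DMb1 probe, -2.31 to -1.35.

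The H2-DMb2 probe lay at -1.21 and -1.58 in Bob1+/+, -4.55 and -7.80 in Bob1-/-, -1.49 and -1.63 in C57BL/6Ncrl, and -1.16 and -1.58 in mir-146a-/-. The Bob1-/- arrays differed by 3.25 log2 units, and replicate B was not well above background, so 1 of the 2 arrays measured the low level. The fitted change of -4.78 (SE 0.92, 95% confidence interval -6.99 to -2.58, adjusted p = 0.0378) is therefore loosely bounded. It ranged from -3.16 to -6.41 with an array left out, and was -1.29 under the normexp background correction, -1.72 under that correction without spots at or under their background, and -0.31 in the deposited table. The call was lost without any array of the other groups: without Bob1+/+ replicate A (adjusted p = 0.155) or B (0.0965), a C57BL/6Ncrl array (0.0640) or a mir-146a-/- array (0.0738).

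H2-O, the inhibitor of H2-DM, is made of H2-Oa and H2-Ob and is typical of B cells. H2-Oa at A_51_P449325 (mm9 chr17:34232033-34232092) had levels of 1.81 and 1.60 in Bob1+/+, 0.30 and -0.29 in Bob1-/-, 1.76 and 1.71 in C57BL/6Ncrl, and 1.85 and 1.71 in mir-146a-/-. Unlike the probes of the A and E chains and of H2-DM other than H2-DMb2, replicate B was the lower of the Bob1-/- pair. The fall was 3.24-fold (-1.70 ± 0.21 on the log2 scale, estimate ± SE, adjusted p = 0.00926), and its call was lost without Bob1+/+ replicate A (adjusted p = 0.0570). The second H2-Oa probe, A_51_P449329, gave -1.77 (SE 0.36, adjusted p = 0.0441). Its call was lost without any array of the other 3 groups: without Bob1+/+ replicate A (adjusted p = 0.173) or B (0.102), a C57BL/6Ncrl array (0.0696) or a mir-146a-/- array (0.0831).

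H2-Ob was the least changed gene. A_52_P679470 lay at 0.69 and 0.55 in Bob1+/+, -0.37 and -0.82 in Bob1-/-, 0.61 and 0.60 in C57BL/6Ncrl, and 0.82 and 0.69 in mir-146a-/-. The fall was 2.32-fold (-1.21 ± 0.17 on the log2 scale, estimate ± SE, adjusted p = 0.0147), lost without Bob1+/+ replicate A (adjusted p = 0.0826) or B (0.0544). The other probe, A_52_P278928, was dim: it was well above background on neither Bob1-/- array and on 1 of 2 arrays in Bob1+/+. It met the filter for testing through C57BL/6Ncrl alone, with 2 of 2 arrays there and 1 of 2 in mir-146a-/-. No fold is given, although the fit called it (adjusted p = 0.0455). That call was lost without Bob1+/+ replicate A (0.175) or B (0.0593), Bob1-/- replicate A (0.119) or B (0.135), or a C57BL/6Ncrl array (0.0727).

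**Figure D2:**
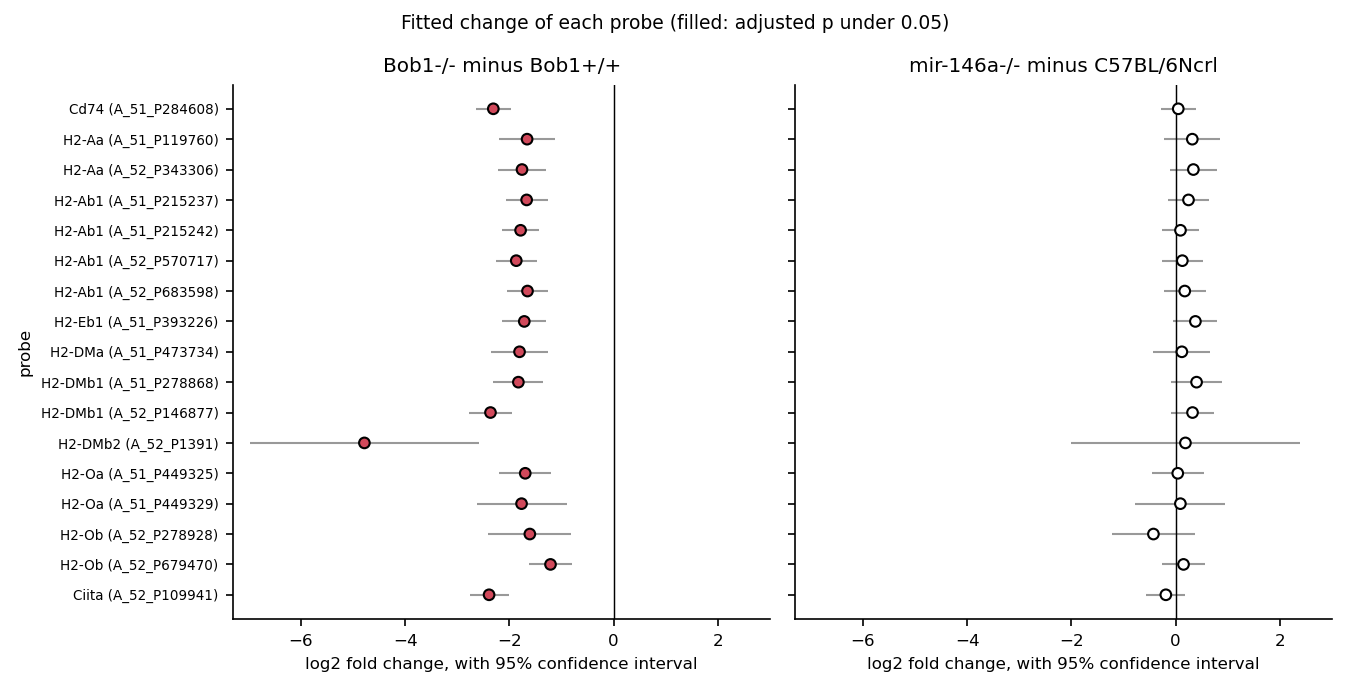
Fitted log2 fold change (x axis) of each of the 17 probes (y axis) with its 95% confidence interval, for Bob1-/- minus Bob1+/+ (left) and mir-146a-/- minus C57BL/6Ncrl (right). Filled points have an adjusted p under 0.05: all 17 on the left, with H2-DMb2 farthest out and with the widest interval, and 0 on the right.

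Without miR-146a the class II genes did not pass the test. Of the 17 probes, 0 were called between mir-146a-/- and C57BL/6Ncrl (limma), where 0.0716% of tested probes were, and 0 had an unadjusted p under 0.05, against 2.70% of tested probes. The log2 fold changes ran from -0.43 to 0.40 with a median of 0.15, and 15 of the 17 were positive. Cd74 changed by 0.05 (95% confidence interval -0.29 to 0.39), Ciita by -0.19 (-0.56 to 0.19) and H2-Ab1 at A_51_P215237 by 0.25 (-0.16 to 0.65). The highest value was that of H2-DMb1 at A_51_P278868, 0.40 (-0.08 to 0.88), and the lowest that of the dim H2-Ob probe A_52_P278928, -0.43 (-1.23 to 0.37). That probe met the filter for testing only through C57BL/6Ncrl, the reference here, and the lowest value of the other probes was that of Ciita. For H2-DMb2 the interval, -2.02 to 2.39, was too wide to limit a change.

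The wild-type groups, Bob1+/+ and C57BL/6Ncrl, were also compared, since they come from different sets of mice. Here too 0 of the 17 probes were called (limma), against 0.0339% of tested probes, and 0 had an unadjusted p under 0.05, against 2.13%. The log2 fold changes ran from -0.35, at the dim H2-Ob probe A_52_P278928, to 0.26, and the lowest of the other probes was -0.08. C57BL/6Ncrl, through which alone that H2-Ob probe met the filter, is the reference here as well. This comparison shares its Bob1+/+ arrays with the Bob1 comparison and its C57BL/6Ncrl arrays with the miR-146a comparison.

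The difference between the Bob1 effect and the miR-146a effect was tested itself. It was lower for the Bob1 effect at all 17 probes, with a median of -1.98, and 13 probes of 8 genes passed, against 1.49% of tested probes called in either direction and 0.980% in that one. Cd74 differed by -2.36 (SE 0.20, adjusted p = 0.00468), Ciita by -2.20 (SE 0.22, adjusted p = 0.00904) and the probe shared by H2-DMb1 and H2-DMb2 by -2.69 (SE 0.24, adjusted p = 0.00630). The 4 that did not pass were the probe of H2-DMb2 (adjusted p = 0.127), a probe of H2-Oa (0.136) and both of H2-Ob (0.0555 and 0.232). This count leaned on single arrays. It was 4 without Bob1+/+ replicate A and 6 without B, 3 without either C57BL/6Ncrl array, and 2 and 4 without mir-146a-/- replicate A and B. Without a Bob1-/- array it was 13 or 12. The differences of Cd74 and the shared probe passed with each array left out, and that of Ciita failed only without mir-146a-/- replicate A (adjusted p = 0.0534). With the slide as a block Ciita alone passed (adjusted p = 0.0370), with Cd74 at 0.0601 and the shared probe at 0.0569.

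**Figure D3:**
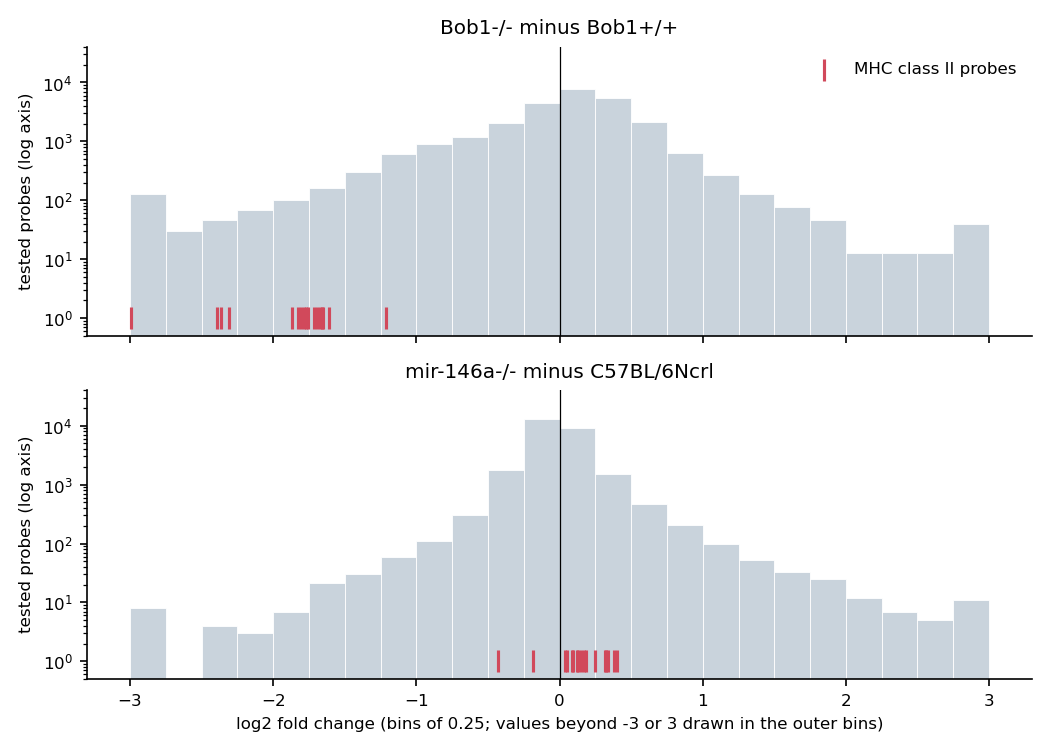
Number of tested probes (log axis) in bins of log2 fold change for Bob1-/- minus Bob1+/+ (top) and mir-146a-/- minus C57BL/6Ncrl (bottom). Red ticks mark the 17 class II probes, which have a median of -1.77 in the upper panel and of 0.15 in the lower one; H2-DMb2, at -4.78, is drawn in the outermost bin of the upper panel.

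Within a group the members also moved together between the replicates. Replicate A, the female culture, was higher than replicate B at 17 of 17 probes in Bob1+/+, 14 in C57BL/6Ncrl and 16 in mir-146a-/-, but at 5 in Bob1-/-. Over all tested probes the share with A higher was 42.9% to 51.4% in the 4 groups. The differences were small, with a median of 0.22 in Bob1+/+, 0.08 in C57BL/6Ncrl, 0.18 in mir-146a-/- and -0.19 in Bob1-/-. With the letter, which is also the sex, as a term common to the 4 groups, 0 of the 17 probes were called by limma and 1 had an unadjusted p under 0.05, against 13.6% of tested probes.

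The genes whose levels over the 8 arrays were most like those of Cd74 were taken from 14561 tested genes by Pearson's r, as a description. Outside the class II genes they were Slc47a1, Cacna1e, Rab39, A630001G21Rik and Btla, each with r of 0.997 to 0.998, and of 0.52 to 0.93 over the 6 arrays with Bob1. Slc47a1 and Cacna1e had mean levels of -7.29 and -7.31 in Bob1-/-, near that of the dim H2-Ob probe (-7.25). Slc47a1 encodes a transporter that exports organic cations, Cacna1e a calcium channel subunit, Rab39 a small GTPase of vesicle traffic, and Btla an inhibitory receptor of lymphocytes. The other class II probes correlated with Cd74 at r of 0.92 to 0.99 over the 8 arrays, and at 0.23 to 0.66 over the 6 arrays with Bob1. The points share the arrays and their scaling, and the 8-array values rest on the distance between the Bob1-/- arrays and the rest.

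The factors that seat Ciita on the class II promoters were not called. Of 8 tested (the Rfx5, Rfxank and Rfxap subunits of RFX, the 3 subunits of NF-Y, Creb1 and Atf1), 0 passed the limma test in Bob1-/-, with 0 lower and 2 higher at an unadjusted p under 0.05, and their median change was 0.26. Of all tested probes, 10.4% were lower and 17.0% higher at that unadjusted level. Of 10 genes known to act on the Ciita gene or on B cell and myeloid programs around it, 5 were lower and 1 higher at that unadjusted level. Their median change was -0.36, and with the slide as a block 2 were lower at that level. After adjustment, 1 was called higher and 1 lower. Over all tested probes 2.82% were called higher and 2.73% lower. Irf4, a lymphoid interferon regulatory factor, rose 2.13-fold (1.09 ± 0.15 on the log2 scale, estimate ± SE, adjusted p = 0.0134), and the call was lost without Bob1+/+ replicate A or B or Bob1-/- replicate A (adjusted p of 0.0600 to 0.0678). Irf8, its myeloid and B cell relative, fell 1.55-fold (-0.63 ± 0.11 on the log2 scale, estimate ± SE, adjusted p = 0.0295), a call lost without any 1 of the 8 arrays (adjusted p of 0.0520 to 0.119). With the slide as a block neither passed, at an adjusted p of 0.214 for Irf4 and 0.272 for Irf8.

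Of 11 tested genes that prepare peptides in endosomes, 3 were called lower in Bob1-/-, against 2.73% of all tested probes. At an unadjusted p under 0.05 (limma), 5 were lower, against 10.4%. All 11 had a negative change, with a median of -0.71, which was -0.33 without Bob1-/- replicate A. Ctsh, an aminopeptidase of the cathepsin family, fell 2.72-fold (-1.44 ± 0.26 on the log2 scale, estimate ± SE, adjusted p = 0.0311). Ifi30, the thiol reductase that opens disulfide bonds of antigens, fell 2.00-fold (-0.998, SE 0.13, adjusted p = 0.0113). Ctsz, a carboxypeptidase, fell 1.61-fold (-0.69, SE 0.14, adjusted p = 0.0470). With an array left out, 0 to 2 of the 11 were called. Ctsz was lost without any 1 of the 8 arrays (adjusted p of 0.0654 to 0.193), Ctsh without either Bob1+/+ array, Bob1-/- replicate A or either mir-146a-/- array (0.0656 to 0.140), and Ifi30 without either Bob1+/+ array or Bob1-/- replicate B (0.0507 to 0.0665). With the slide as a block 0 of these 3 passed the limma test (adjusted p of 0.152 to 0.465), and in the deposited table Ifi30 alone did (adjusted p = 0.0132). Ctss, the cathepsin that trims the invariant chain, changed by -0.84 (SE 0.27, adjusted p = 0.118).

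Of 3 genes of class II turnover at the surface, 2 were called lower, against 2.73% of all tested probes. Cd83, which protects surface class II from ubiquitination, lay at -0.70 ± 0.15 in Bob1-/- against 1.81 ± 0.40 in Bob1+/+ (SD, n = 2), and its call held with each array left out (adjusted p up to 0.0498). March1, the ligase that ubiquitinates class II, lay at -0.70 ± 0.28 against 0.73 ± 0.28 (SD, n = 2; adjusted p = 0.0345). Its call was lost without either array of Bob1+/+, Bob1-/- or mir-146a-/- (adjusted p of 0.0645 to 0.154). Both a gene that spares class II and one that removes it were thus called lower, and neither passed in the slide-blocked fit (adjusted p = 0.144 for Cd83 and 0.380 for March1) or in the deposited table (-1.37, adjusted p = 0.0542, and -0.70, 0.0850).

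Of 6 costimulatory genes, 2 were called lower, against 2.73% of all tested probes. At an unadjusted p under 0.05 (limma), 5 were lower, against 10.4%, and 2 were in the deposited table. All 6 had a negative change, with a median of -1.35, which shrank to -0.14 in the deposited table and to -0.50 under normexp without spots at or under their background. Cd40, the receptor for T cell help, lay at -3.10 ± 0.17 in Bob1-/- against -0.71 ± 0.14 in Bob1+/+ (SD, n = 2; adjusted p = 0.000856), held with each array left out and passed in the slide-blocked fit (adjusted p = 0.0330). Cd86, the ligand of CD28, lay at -4.49 ± 0.52 against -2.89 ± 0.28 (SD, n = 2; adjusted p = 0.0291). Its call was lost without either array of Bob1+/+ or mir-146a-/- or Bob1-/- replicate A (adjusted p of 0.0626 to 0.132), and in the slide-blocked fit (0.341), and its change was -0.08 in the deposited table (0.102). Cd40 was still called there, with a change of -0.45 (adjusted p = 0.00458).

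The class I presentation genes were not called. Of 16 tested, which include the H2-K1 and H2-D1 chains, B2m, the Tap transporter, the immunoproteasome and their coactivator Nlrc5, 0 passed the limma test, with 2 lower and 1 higher at an unadjusted p under 0.05, against 10.4% lower and 17.0% higher of all tested probes. Their median change was -0.08 and changed sign with the setting (0.03 with the slide as a block, 0.10 under the planned normexp correction). In the miR-146a comparison 0 genes of any of these lists were called.

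**Figure D4:**
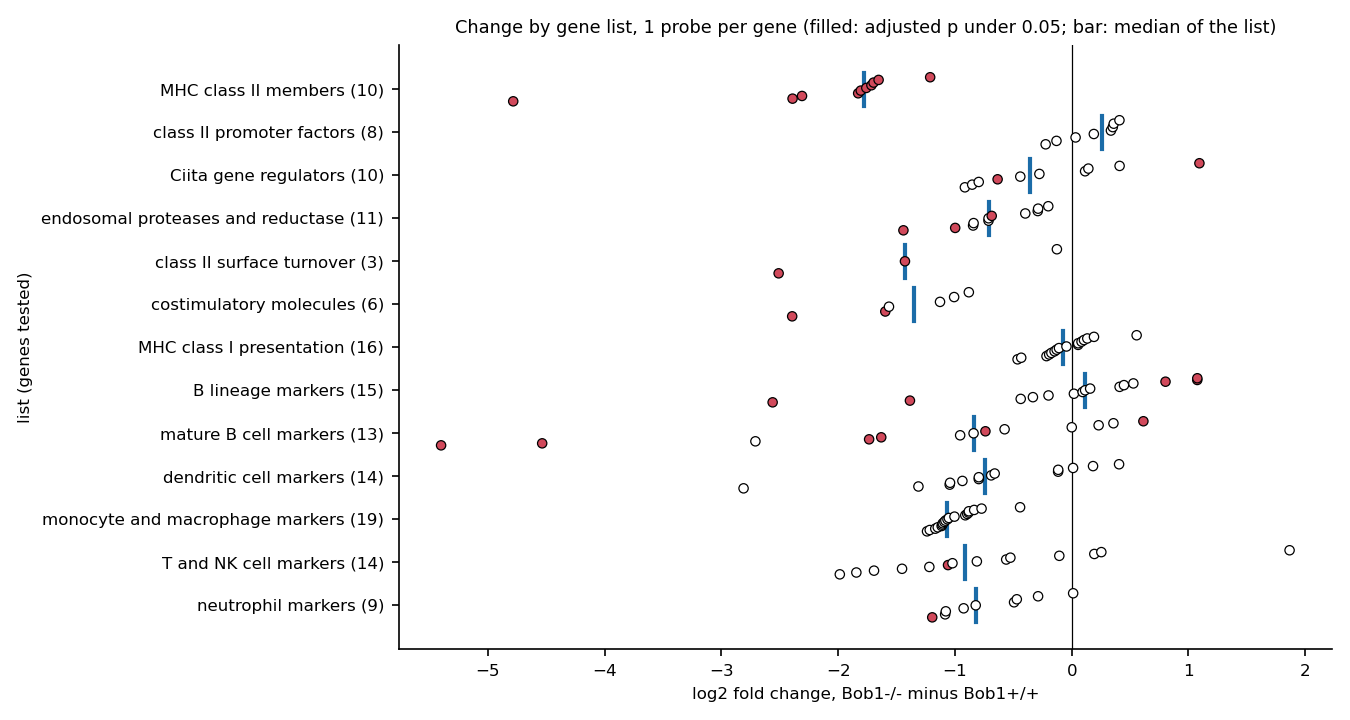
Log2 fold change in Bob1-/- against Bob1+/+ (x axis) of each gene, by list (y axis, number of genes tested in brackets). Filled points have an adjusted p under 0.05 and the bar is the median of the list, -1.78 for the members with 1 probe per gene, -0.08 for class I presentation and -1.06 for monocyte and macrophage markers.

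Markers of other cells that carry class II were measured in the same cultures. Of 19 monocyte and macrophage markers, all had a negative change in Bob1-/- (median -1.06), 0 were called by limma and 10 had an unadjusted p under 0.05, against 10.4% of all tested probes lower at that level. These values leaned on single arrays. The median was -0.57 with 2 such markers without Bob1-/- replicate A, and -1.53 with 17 without replicate B. Without Bob1+/+ replicate A 2 markers reached that level, and 0 did in the slide-blocked limma fit. The median was -0.69 in the deposited table. Under normexp without spots at or under their background 6 of the 19 were called lower by limma (median -0.94). In that setting 1139 of all 26523 tested probes were called lower. With only probes well above background on all 8 arrays 2 of the 19 were called lower, and with the replicate block 1 was. The summed relative signal of the 19 markers was 294 in Bob1-/- replicate A and 489 in B, against 528 to 724 on the other 6 arrays. Lyz2, the brightest of the list with levels of 7.63 and 8.40 in Bob1-/-, weighs most in this sum. Its own change was -0.44 (limma, adjusted p = 0.343).

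Of 14 tested dendritic cell markers, 11 had a negative change (median -0.74), 0 were called by limma and 2 were lower at an unadjusted p under 0.05. The median was -0.28 without Bob1+/+ replicate A, -0.44 with the slide as a block, -0.07 in the deposited table and -0.21 under the same normexp setting. Their sum was 21.1 and 21.4 in Bob1-/- and 22.6 to 34.0 elsewhere. Of the markers of cross-presenting dendritic cells, the probe of Clec9a was well above background on neither Bob1-/- array, while Xcr1 was on both. Xcr1 had a change of 0.18 (limma, adjusted p = 0.543). Batf3, Itgae and Cd8a of the same list had negative changes of -0.80 (adjusted p = 0.193), -0.66 (0.447) and -2.81 (0.220) and were not called. The part of these cells in the fall of the class II genes was not tested.

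In Bob1-/- replicate A, where the macrophage sum was lowest, 12 of the 17 class II probes were also lower than in replicate B. For 2 of the 12, those of Cd74 and Ciita, the difference was at most 0.01 log2 units. Without replicate A the median change of the members was -1.70 and 15 of 17 passed. Without replicate B it was -1.94 and 16 passed.

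Among B cell markers, the 15 of the B lineage had a median change of 0.11, with 3 called higher and 2 lower, and their sum was 914 and 1071 in Bob1-/- against 1066 to 1306 elsewhere. The 13 tested mature B cell markers had a median change of -0.84, with 5 called lower and 1 higher. At an unadjusted p under 0.05 (limma), 8 were lower and 2 higher, against 10.4% and 17.0% of all tested probes. The sum of the 13 was 36.8 and 42.9 in Bob1-/- and 93.0 to 120 elsewhere, so the groups did not overlap. Ms4a1 and Fcmr, the brightest of the list in Bob1+/+, weigh most in the sum there and changed by -5.40 and -4.54. Of the 13 markers, 9 had a negative change. Over all tested probes 2.73% were called lower and 2.82% higher in this comparison. With an array left out, 2 to 5 of the mature markers were called lower and 0 higher. With the slide as a block, 1 of the 13 was lower and 0 higher, and of the B lineage markers 1 was lower and 0 higher. T and NK cell markers had a median of -0.92 with 1 of 14 called lower (Prf1), and neutrophil markers a median of -0.82 with 1 of 9 called lower (Elane). Both calls were lost with some array left out. Without Bob1+/+ replicate A these medians were -0.31 and -0.48, and in the deposited table that of the T and NK cell markers was -0.05. Without Bob1+/+ replicate B the neutrophil median was -1.26, and without Bob1-/- replicate B the T and NK median was -0.48. The part of B cell maturity in the class II values was not tested.

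The promoters of the members were read from RefSeq (GRCm38.p6) as windows from 250 bases before to 50 bases after the annotated start. Of the 10 genes, 7 had an entry, with 8 windows in all. H2-Ab1, Cd74 and Ciita had none. The octamer ATGCAAAT, the site at which Oct1 and Oct2 bring Bob1 to DNA, was found on neither strand in any of the 8 windows, and in 1.74% of all 32851 windows of the same length. The Y box core CCAAT, bound by NF-Y, was found on either strand in 7 of the 8 windows, 1 or more for each of the 7 genes, against 37.4% of all windows. In all 7 it lay on the strand opposite to the gene, where it reads ATTGG on the gene's strand, and 22.1% of all windows hold it in that orientation.

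The stretch ACAGATG, a version of the downstream part of the X box, was in 2 of the 8 windows (H2-Oa and H2-Aa) and in 5.01% of all windows. In H2-Oa it lay on the gene's strand at base -137, with ATTGG at base -43. In H2-Aa it lay on the opposite strand at base -232, with ATTGG at base -48. A wider pattern, AACNNATG, was chosen after the windows had been read. It was in 4 of the 8 windows, all on the gene's strand, and in 8.86% of all windows on either strand. In H2-Eb1, H2-DMb1, H2-DMb2 and H2-Ob it lay 22, 23, 23 and 20 bases before the ATTGG. The pairing of AACNNATG with ATTGG within 30 bases on the gene's strand was also chosen after the windows had been read. It was in 0.152% of all windows, a share that is no test of the members it was drawn from. The stretches of H2-DMb1 and H2-DMb2 around the pattern are much alike, so they are not separate instances. The windows of H2-DMa and H2-Oa, whose genes also fell in Bob1-/-, held no AACNNATG and are not shown. The promoters shown are the 4 that hold this pattern and that of H2-Aa, which does not. Each is given 5′ to 3′ on the gene's strand from base -150 to base -1 before the start, with AACNNATG and ATTGG in capitals:
H2-Aa: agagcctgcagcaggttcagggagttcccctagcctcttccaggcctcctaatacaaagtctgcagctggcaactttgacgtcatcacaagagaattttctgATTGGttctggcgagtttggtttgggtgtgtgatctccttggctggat
H2-Eb1: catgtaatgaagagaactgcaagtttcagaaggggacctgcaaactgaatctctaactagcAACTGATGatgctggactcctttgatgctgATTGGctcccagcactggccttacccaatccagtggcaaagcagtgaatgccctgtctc
H2-DMb1: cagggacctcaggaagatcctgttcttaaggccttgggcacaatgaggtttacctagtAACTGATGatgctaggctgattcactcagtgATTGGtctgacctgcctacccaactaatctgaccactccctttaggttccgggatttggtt
H2-DMb2: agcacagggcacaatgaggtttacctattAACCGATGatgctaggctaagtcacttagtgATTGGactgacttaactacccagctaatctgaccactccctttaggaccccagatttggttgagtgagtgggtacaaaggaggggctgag
H2-Ob: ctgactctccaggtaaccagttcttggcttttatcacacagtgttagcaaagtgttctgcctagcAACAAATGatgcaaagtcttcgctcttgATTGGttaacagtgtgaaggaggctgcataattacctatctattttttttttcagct
In GRCm38.p6 these stretches are chr17:34287824-34287973 for H2-Aa (minus strand), chr17:34305717-34305866 for H2-Eb1, chr17:34153041-34153190 for H2-DMb1, chr17:34145099-34145248 for H2-DMb2 and chr17:34238755-34238904 for H2-Ob (plus strand). A match of letters is a description and not a bound site.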

How the data were processed

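Spots were quantified by Feature Extraction 10.5.1.1, per the file headers, and the intensity used is its deposited processed signal, already corrected for background. The authors' deposited table of log2 values served as an alternative. The submitters' processing notes name limma, with no version. Control spots (1639 per array) and outlier-flagged spots (71 to 156) were left out, no spot was saturated, the 75th percentile of log2 signal on the same array was subtracted, and replicate spots were averaged by probe. Testing was limited to probes that the scanner software called well above background on both arrays of some group. All 8 arrays entered a limma fit (version 3.58.1, R 4.3.3) of 4 group means with 4 residual degrees of freedom. P-values were adjusted by Benjamini-Hochberg over all 26523 probes of a comparison, with a threshold of 0.05. Data simulated for the Bob1 comparison held 26452 probes in all. There the fit called a share of 0.81 of probes lowered by 2 log2 units and of 0.33 lowered by 1. The simulated noise was independent between arrays, without a slide or replicate effect. The share of probes altered was smaller than the share called in the data, so these values need not hold for the data. Probes carry the file's gene names and mm9 positions; their place in exons or UTRs was not analysed here. Lists used the probe with the highest mean level for each gene. Of each pathway list at most the 3 called genes with the largest change were named. Ctss, Clec9a, Xcr1, Batf3, Itgae, Cd8a, Lyz2, Ms4a1, Fcmr, Prf1 and Elane were added after their values were seen. The members and lists were chosen with earlier results of these data known. Alternatives changed the scaling, background correction, source, filter, rows, slide, replicate block and arrays.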

Additional observations from a re-analysis of the deposited data

Results flagged for a closer look

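The Bob1 effect and the miR-146a effect on the class II genes differed in the main fit, by a test of the difference itself. Of the 17 probes, 13 passed (limma, adjusted p under 0.05), all with the lower value for the Bob1 effect, as 0.980% of all tested probes did. The median difference was -1.98 on the log2 scale. Both knockouts were set against wild-type cultures of their own, and the miR-146a effect on the same probes ran from -0.43 to 0.40. The Bob1+/+ and Bob1-/- arrays lay on different slides, so the slide enters the difference. With the slide as a block 1 probe passed, with all 17 lower and a median of -1.98. The deposited table and the fit with no filter on dim probes gave 3 each, and the planned normexp correction 0. The normexp correction without spots at or under their background gave 16. The count also leaned on single arrays.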

How the results depend on the processing

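In the Bob1 comparison all 17 probes were lower under every alternative run, except the dim H2-Ob probe A_52_P278928, which turned to 0.18 (0.34 for the difference between the knockout effects) under the normexp correction without spots at or under their background, an alternative chosen after seeing the data, under which 16 of 17 passed. The planned normexp correction gave 0 calls in both tests, a median of -1.46 and 0 calls over all probes. On 4 arrays 2 to 6 spots lay at or under their background, and the interquartile range of its log2 values was down to 0.110 on an array. The number of probes passing in the Bob1 comparison was 10 of 10 with 1 probe per gene, 9 in the 4 Bob1 arrays alone, 7 within slide 2, 3 with the slide as a block, and 11 to 16 with an array left out. The deposited table gave a median of -1.22, and leaving out an array gave medians of -1.94 to -1.64. For the difference between the effects, 3 passed in the deposited table, 3 with no filter on dim probes, 1 with the slide as a block, and 2 to 13 with an array left out. The replicate block, with the letter A or B as a term, gave 17 and 13 calls; in the latter test H2-Aa A_51_P119760 was lost (adjusted p = 0.0542) and H2-Ob A_52_P679470 gained (0.0393). The letters pair no animals in the labels, and the A minus B deviations of the groups correlated at 0.07 to 0.36 over tested probes (6 pairs of groups; 0.12 for Bob1+/+ and Bob1-/-). Over all probes, the Bob1 calls were 1472 (724 lower, 748 higher), 5434 (1139 lower, 4295 higher) under the added normexp correction, 1382 (475 lower, 907 higher) in the deposited table, 713 with no filter, 2272 with the replicate block, 124 with the slide block, 358 in 4 arrays and 286 within slide 2. The miR-146a and wild-type comparisons gave 0 member calls under every alternative. Dim probes limit H2-DMb2 and A_52_P278928.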
